A study of Mus musculus with 6 samples.

Results

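The nuclear genes for the subunits of respiratory complex I were followed in inguinal white fat (iWAT) of mice after short cold exposure. The set holds 37 protein-coding genes, taken by symbol: Nduf, then a, b, c, s or v, then a number, in the GENCODE M21 annotation of the mouse genome build GRCm38. All 37 were among the 16627 genes of the count table, and all 37 passed the filter on low counts that left 16366 genes for testing. The rule matched 41 symbols of every biotype, and the pseudogenes among them were left out. Ndufb1 was not analysed here.

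Complex I, NADH:ubiquinone oxidoreductase, takes electrons from NADH, hands them to ubiquinone and pumps protons across the inner mitochondrial membrane. Its matrix arm carries the flavin and the iron-sulfur clusters, in a dehydrogenase (N) module that oxidises NADH and a quinone (Q) module that reduces ubiquinone. Its membrane arm pumps the protons. The catalytic core is built from 7 nuclear subunits and 7 subunits made inside the mitochondrion (mt-Nd1 to mt-Nd6 and mt-Nd4l), and the other nuclear subunits are accessory. In thermogenic fat the chain supplies the proton gradient that uncoupling protein 1 (Ucp1) dissipates as heat. The symbol rule also takes in Ndufa4, since reassigned to complex IV, and its hypoxia-inducible paralogue Ndufa4l2.

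RNA sequencing covered 3 iWAT libraries from adipocyte-specific Celf1 knockout mice (Celf1 AKO) and 3 from floxed controls without the knockout (Flox control). Celf1 encodes an RNA-binding protein. The series describes both groups as Celf1fl/fl and both were held at 4 °C for 6 h, so no room-temperature group enters any comparison. The sources used here do not give the promoter driving the deletion, the strain, the sex or the age. Nothing in the labels ties each library to its own mouse, so the p-values rest on the spread among libraries, which may be technical. In this bulk tissue, fewer cells of a type and less RNA per cell cannot be told apart.

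Celf1 itself stood at 52.5, 49.8 and 62.99 CPM (counts scaled to library size) in the Celf1 AKO libraries, against 126, 114 and 144 CPM in the Flox control libraries, with no overlap (log2 fold change -1.21, SE 0.14, edgeR quasi-likelihood adjusted p = 0.122). The sources used here do not say which exons were deleted, and these counts cover the whole gene. DESeq2 called Celf1 (adjusted p = 1.21e-09), as did edgeR without Celf1 AKO replicate 3 (adjusted p = 0.0174). Ucp1 was at 79.6, 4.86 and 34.01 CPM in Celf1 AKO fat and 461, 567 and 495 CPM in Flox control fat (log2 fold change -3.69, SE 0.84, edgeR adjusted p = 0.246, DESeq2 adjusted p = 0.00938). The libraries held 54835348 to 64676854 counts in Celf1 AKO and 62382822 to 64979443 in Flox control. With the TMM factors, 1 CPM stood for 54.9 to 67.8 counts. The lowest count of a member in any library was 107. Flox control replicate 1 stood apart from the other Flox control libraries for the complex I subunit genes, and the main summaries are therefore given with and without it.

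The tissue label was checked with marker lists. The 8 adipocyte markers summed to 26741 to 33434 CPM in Celf1 AKO and 31172 to 34980.1 CPM in Flox control. Of the 8, 6 had a negative log2 fold change and 2 a positive one (median -0.09), while 52.5% of all tested genes were negative. The most negative, named after its values were seen, was Lep (log2 fold change -1.71, SE 0.60, edgeR adjusted p = 0.324). Lep was at 41.1, 165 and 101 CPM in Celf1 AKO and 142, 568 and 297 CPM in Flox control, with overlap. Endothelial markers were higher on average in Celf1 AKO for 6 of 6 genes (sums of 912 to 1098 against 484 to 746 CPM), Schwann cell markers for 5 of 5 (148 to 278 against 75.1 to 98.97 CPM), neutrophil markers for 5 of 5 (15.6 to 108 against 3.20 to 15.4 CPM), erythrocyte genes for 6 of 6 (557 to 1271 against 351 to 588 CPM) and mammary epithelial genes for 3 of 3 (3.13 to 11.96 against 1.01 to 3.25 CPM). Of these, the erythrocyte and mammary epithelial sums overlapped between the groups, and the neutrophil sums were only just apart. Pericyte and smooth muscle (5 of 8 higher), macrophage (1 of 6) and fibroblast (1 of 5) markers overlapped in their sums too. Of skeletal muscle only Acta1 was in the table, with 23.1, 70.6 and 1039 CPM in Celf1 AKO, so Celf1 AKO replicate 3 was the high library, and 45.1, 75.2 and 33.5 CPM in Flox control. The single B and T cell marker was at 1.13 to 1.57 CPM in Celf1 AKO and 0.47 to 0.89 CPM in Flox control. The part of these other cell types in the results below was not tested.

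Regulatory sequence upstream of these genes is shown first, because factors that drive respiratory genes are known to bind such promoters. RefSeq promoter windows on GRCm38.p6, running from 250 bases before to 50 bases after the start site, were found for 32 of the 37 genes, as 34 windows. Both strands were searched for an NRF1 site (GCGC, any base, TGCGC), a YY1 site (AAGATGGCG), an ETS site of the kind GABP binds (CCGGAAG) and a site of the estrogen-related receptors (AAGGTCA). The 5 windows below show the range: Ndufs6 with NRF1 and YY1 matches, Ndufb4 with the most NRF1 matches and an AAGGTCA match, Ndufa8 with NRF1 alone, Ndufs3 with ETS matches, and Ndufb5, the gene with the most negative fold change, with none. Capitals mark the matches and all sequences run 5′ to 3′ on the gene's strand, taken from chr13:73328433-73328732 (minus, Ndufs6), chr16:37654319-37654618 (minus, Ndufb4), chr2:36049289-36049588 (minus, Ndufa8), chr2:90904672-90904971 (minus, Ndufs3) and chr3:32736813-32737112 (plus, Ndufb5).
Ndufs6: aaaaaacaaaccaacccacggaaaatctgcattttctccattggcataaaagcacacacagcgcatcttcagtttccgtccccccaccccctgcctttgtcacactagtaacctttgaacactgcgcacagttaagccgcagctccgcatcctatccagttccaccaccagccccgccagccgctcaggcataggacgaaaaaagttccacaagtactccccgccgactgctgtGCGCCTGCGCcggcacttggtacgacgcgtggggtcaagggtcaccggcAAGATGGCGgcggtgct
Ndufb4: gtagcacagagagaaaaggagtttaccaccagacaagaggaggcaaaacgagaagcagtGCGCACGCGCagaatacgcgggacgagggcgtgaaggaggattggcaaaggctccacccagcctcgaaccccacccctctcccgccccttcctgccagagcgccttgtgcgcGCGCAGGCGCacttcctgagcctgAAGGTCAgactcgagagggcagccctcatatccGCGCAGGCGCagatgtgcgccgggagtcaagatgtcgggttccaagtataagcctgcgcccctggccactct
Ndufa8: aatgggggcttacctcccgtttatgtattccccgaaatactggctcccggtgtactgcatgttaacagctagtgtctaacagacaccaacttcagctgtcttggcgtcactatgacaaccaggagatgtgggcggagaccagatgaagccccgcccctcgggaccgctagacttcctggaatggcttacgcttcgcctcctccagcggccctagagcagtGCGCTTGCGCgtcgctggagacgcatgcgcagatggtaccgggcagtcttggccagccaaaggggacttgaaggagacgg
Ndufs3: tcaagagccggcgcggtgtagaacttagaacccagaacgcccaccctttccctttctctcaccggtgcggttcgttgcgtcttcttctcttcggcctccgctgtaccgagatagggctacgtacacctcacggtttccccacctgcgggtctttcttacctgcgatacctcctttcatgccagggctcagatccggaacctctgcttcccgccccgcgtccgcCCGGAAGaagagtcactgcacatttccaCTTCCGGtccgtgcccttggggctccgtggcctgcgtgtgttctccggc
Ndufb5: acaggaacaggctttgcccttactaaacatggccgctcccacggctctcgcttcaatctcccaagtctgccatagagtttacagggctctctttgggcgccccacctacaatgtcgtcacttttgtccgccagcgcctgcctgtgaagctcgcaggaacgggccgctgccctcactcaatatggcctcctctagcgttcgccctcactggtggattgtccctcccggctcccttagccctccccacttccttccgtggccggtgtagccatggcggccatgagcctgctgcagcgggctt

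The NRF1 site was found in 8 of the 34 windows (23.5%), against 4.60% of all 32851 RefSeq promoter windows of the same length, and belonged to Ndufa5, Ndufa6, Ndufa8, Ndufa11, Ndufb4, Ndufs5 and Ndufs6. The YY1 site was in 5 windows (14.7%, against 1.40% of all windows), those of Ndufa9, Ndufc1, Ndufs4, Ndufs6 and Ndufs7. In all 5 it lay 22 to 35 bases after the start site. The ETS site was in 4 windows (11.8%, against 8.86%) and AAGGTCA in 3 (8.82%, against 4.72%). In all, 16 genes had at least 1 of these motifs and 16 had none. A match describes letters in the window and not a bound site. Genes with the NRF1 site had a median log2 fold change of -0.22 between Celf1 AKO and Flox control, and genes without it -0.24. The same medians were -0.18 and -0.24 for YY1, -0.23 and -0.23 for ETS, and -0.22 and -0.24 for AAGGTCA. Without Flox control replicate 1, the medians of genes with and without the motif were -0.05 and -0.10 for NRF1, -0.04 and -0.10 for YY1, -0.11 and -0.10 for ETS, and -0.05 and -0.10 for AAGGTCA.

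Complex I subunit transcripts averaged somewhat less in Celf1 AKO fat than in Flox control fat, but no single gene passed the test. The fitted level in Celf1 AKO was 85.7% of that in Flox control for the median gene (range 75.8% to 112%), a median log2 fold change of -0.22 (range -0.40 to 0.16), against -0.02 over all tested genes. The fold change was negative for 36 of 37 genes, where 52.5% of all tested genes were negative. None of the 37 passed an adjusted p of 0.05 in edgeR, which called 0.0122% of all genes in either direction and 0% as lower. None passed in DESeq2 either, which called 2.98% of all genes, 0.908% as lower. At an unadjusted edgeR p of 0.05, Ndufb5 and Ndufb6 were lower and no member was higher, against 6.17% and 6.75% of all genes. Every Celf1 AKO library was below every Flox control library in CPM for 10 of 37 members, beside 9.51% of all tested genes. These were Ndufs1, Ndufv2, Ndufs8, Ndufa5, Ndufa12, Ndufa8, Ndufc2, Ndufb5, Ndufb6 and Ndufb10. No member had every Celf1 AKO library above every Flox control library, beside 7.81% of all genes. The median standard error was 0.15 on the log2 scale. The 95% confidence interval of the fold change lay below 0 for 2 members, again Ndufb5 and Ndufb6.

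Flox control replicate 1 was the highest of the 6 libraries for 36 of the 37 genes, as it was for 15.3% of all tested genes, and Celf1 AKO replicate 3 was the lowest for 28, beside 17.2% of all genes. All Celf1 AKO libraries lay below Flox control replicate 1 for 36 genes, yet 27 genes had a Flox control library at or below a Celf1 AKO library. Without Flox control replicate 1, 30 of the 37 fold changes were still negative (51.8% of all genes), the median moved to -0.09 and the fold change was smaller in size for 35 genes. Leaving out the highest control library makes negative fold changes smaller by construction. Without Flox control replicate 2 the median was -0.29, and without Flox control replicate 3 also -0.29. Without Celf1 AKO replicate 3, 32 were negative (52% of all genes), the median was -0.17 and none of the 37 passed, in a fit that called 3.19% of all genes, 1.76% as lower. Flox control replicate 1 also had the largest share of counts from mitochondrially encoded genes, 8.64%, against 7.499%, 7.98% and 7.19% in Celf1 AKO and 7.13% and 6.97% in the other Flox control libraries.

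**Figure D1:**
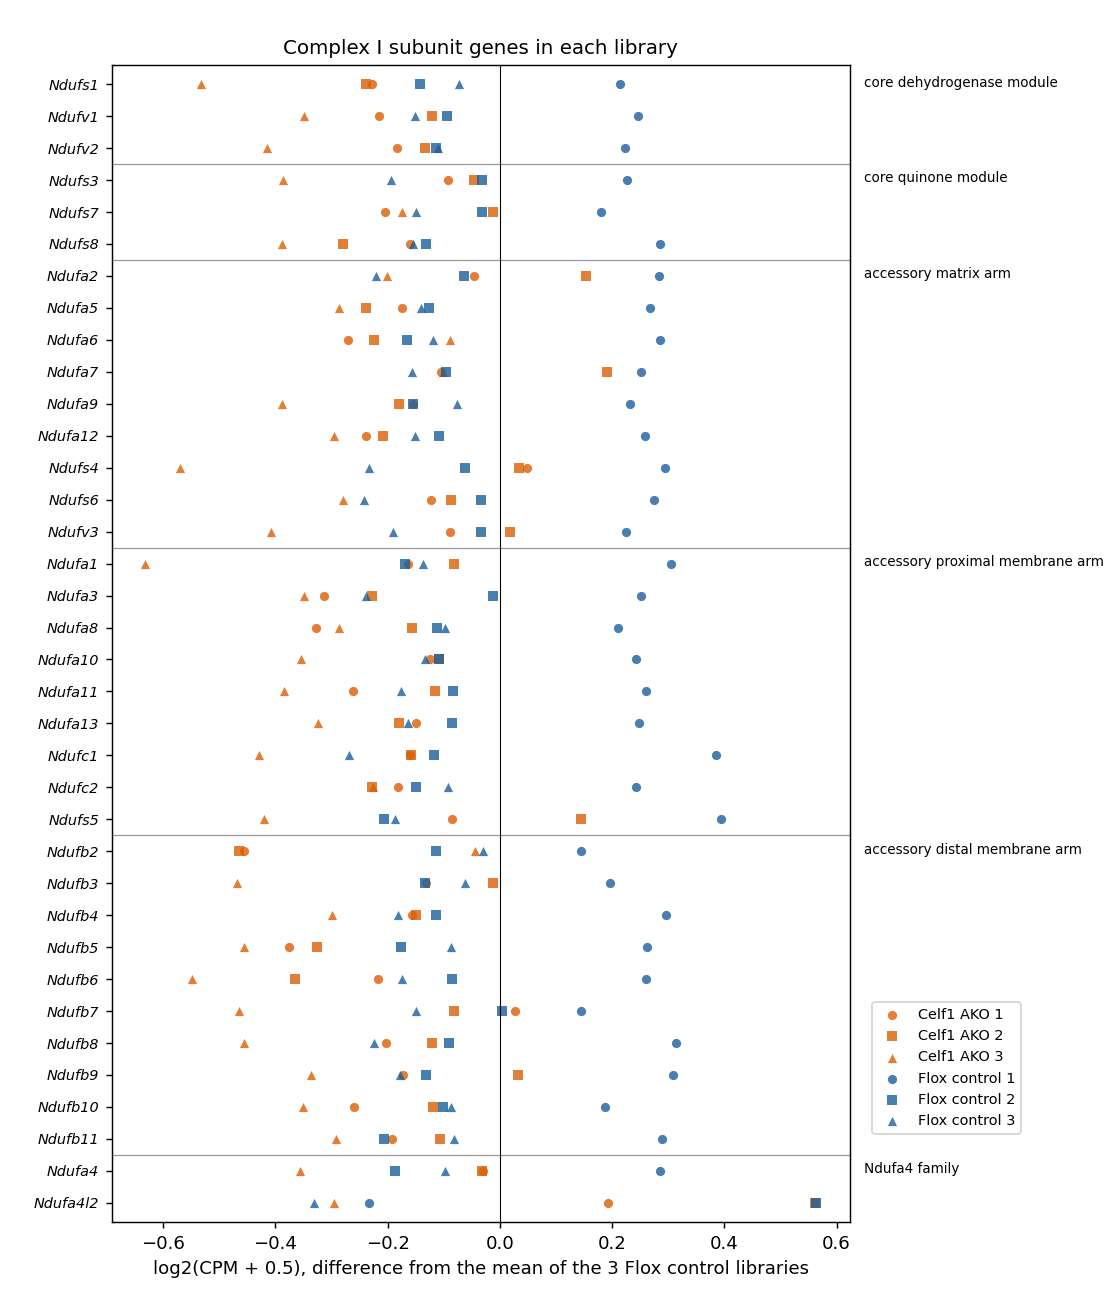
Each row is a complex I subunit gene, grouped by module, and each point is a library, placed by log2(CPM + 0.5) minus the mean of the 3 Flox control libraries (x axis, log2 units). Orange points are Celf1 AKO and blue points Flox control. Of 36 genes drawn, Flox control replicate 1 (blue circle) is the rightmost point for 35 and Celf1 AKO replicate 3 (orange triangle) is the leftmost for 28.

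The genes varied together from library to library. The mean of log2(CPM + 0.5) over the 37 genes stood at -0.17, -0.10 and -0.35 in the Celf1 AKO libraries and at 0.24, -0.09 and -0.15 in the Flox control libraries, relative to the Flox control mean. The difference between the group means was -0.20, with an SD of 0.13 in Celf1 AKO and 0.21 in Flox control. For a typical member the SD of log2(CPM + 0.5) was 0.14 among Celf1 AKO libraries and 0.23 among Flox control libraries. Once the mean of the 37 genes was subtracted from each library, it was 0.079 and 0.061.

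Per transcript length the order of the members was much the same in both genotypes. The authors' FPKM values, fragments scaled by transcript length and library size, put Ndufa4 highest (539 ± 51.2 in Celf1 AKO and 599 ± 69.9 in Flox control, mean ± SD, n = 3 each) and Ndufb9 next (306 ± 24.5 in Celf1 AKO and 345 ± 45.3 in Flox control). The range of Ndufb9 lay below that of Ndufa4. The median member was at 89.6 FPKM in Celf1 AKO and 102 FPKM in Flox control, and 35 of 37 exceeded 10 FPKM in Flox control. Ndufb2 (0.944 ± 0.225 and 1.20 ± 0.0518) and Ndufa4l2 (2.71 ± 0.808 and 2.49 ± 1.19) were lowest. The rank was the same in both genotypes for 22 members and moved by at most 4 places for the others. Counts and FPKM together implied lengths of 4374 bases for Ndufb2, 4438 for Ndufb7, 3129 for Ndufb5 and 2663 for Ndufa11, against 492 for Ndufa4. The FPKM of the first 4 are therefore low for their counts. For Ndufa11 the annotated exons come to only 1092 bases, so its implied length is not that of the annotation used here.

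The groups were apart for more members on FPKM than on CPM, and these scales differ in how libraries were scaled. CPM here carry the TMM factors, which were 1.0021, 0.9445 and 1.0501 in Celf1 AKO and 0.9346, 1.0427 and 1.0324 in Flox control. The FPKM follow the same counts scaled to library size without these factors. A fixed length per gene does not change the order of libraries. The larger number on FPKM therefore reflects the scaling and is not a second measurement. On FPKM all Celf1 AKO libraries lay below all Flox control libraries for 21 of 37 members, against 7.75% of all tested genes, and these 21 included the 10 of the CPM scale. None lay wholly above, beside 8.32% of all genes. Summed over the 37 genes, FPKM came to 4305, 4248 and 3958 in Celf1 AKO, against 5367, 4567 and 4494 in Flox control, without overlap (4170.4 ± 186 and 4809 ± 485, SD, n = 3 each). Summed CPM came to 4299, 4450.4 and 3806 in Celf1 AKO, against 5739, 4419.7 and 4377 in Flox control, with overlap. The Celf1 AKO mean was 86.7% of Flox control in FPKM and 86.4% in CPM, and 92.1% and 95.1% without Flox control replicate 1. With limma on log2(FPKM + 1) no member passed an adjusted p of 0.05, in a fit that called 0% of genes in either direction.

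**Figure D2:**
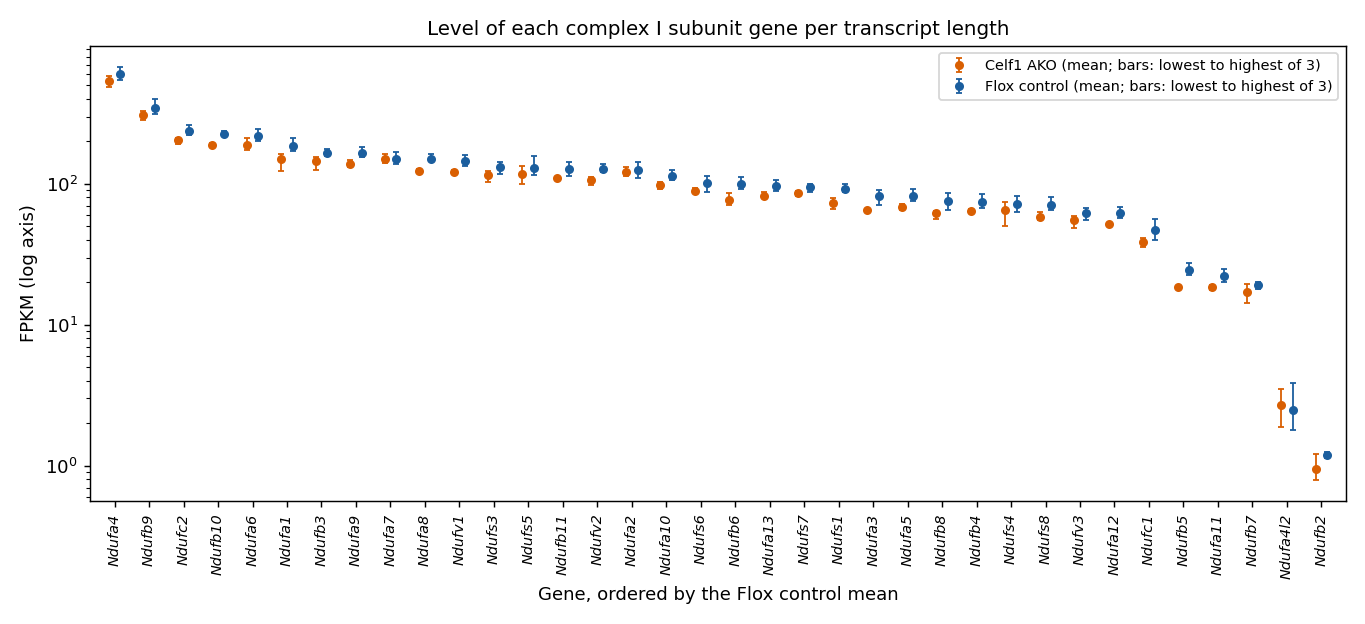
Level of 36 members in the authors' FPKM (y axis, log scale), ordered along the x axis by the Flox control mean. Points are means of 3 libraries, Celf1 AKO in orange left of Flox control in blue, and bars run from the lowest to the highest library. Ndufa4 tops both groups and Ndufb2 and Ndufa4l2 are the only members under 10 FPKM.

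The dehydrogenase core, where NADH is oxidised, had negative fold changes in 3 of 3 genes (median -0.25, or -0.13 without Flox control replicate 1). Ndufs1 and Ndufv2 separated the groups, beside 9.51% of all genes. Ndufs1 (ENSMUSG00000025968, chr1:63143596-63176833, minus strand), the largest subunit and holder of several iron-sulfur clusters, was at 209, 208 and 169 CPM in Celf1 AKO fat and 284, 222 and 233 CPM in Flox control fat. The groups did not overlap, and the log2 fold change was -0.33 (SE 0.15, edgeR adjusted p = 0.392), or -0.22 without Flox control replicate 1. Ndufv2, which holds a further iron-sulfur cluster, was at 171, 177 and 145 CPM in Celf1 AKO fat and 227, 179 and 179.7 CPM in Flox control fat, a narrow separation (log2 fold change -0.25). Ndufv1, which binds NADH and the flavin, was at 205, 219 and 187 CPM in Celf1 AKO fat and 283, 223 and 215 CPM in Flox control fat. Its groups overlapped through Celf1 AKO replicate 2 (log2 fold change -0.24, edgeR adjusted p = 0.52).

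The quinone core had 4 of 4 negative fold changes (median -0.17, or -0.05 without Flox control replicate 1), and only Ndufs8 of these 4 separated the groups, beside 9.51% of all genes. Ndufs8, another iron-sulfur subunit, was at 60.95, 56.1 and 51.97 CPM in Celf1 AKO fat and 83.2, 62.2 and 61.2 CPM in Flox control fat (log2 fold change -0.29, SE 0.15, edgeR adjusted p = 0.445). Ndufs7, which carries the cluster next to the quinone, was at 80.6, 92.1 and 82.2 CPM in Celf1 AKO fat and 105, 90.9 and 83.7 CPM in Flox control fat (log2 fold change -0.13).

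Ndufs3 (ENSMUSG00000005510, chr2:90894634-90904827, minus strand), a core subunit that enters assembly early, lies 35554 bases from Celf1, which spans chr2:90940382-91019497. It was at 128, 132 and 104 CPM in Celf1 AKO fat and 159.8, 134 and 119 CPM in Flox control fat, with overlap. Its log2 fold change of -0.18 (SE 0.15, edgeR adjusted p = 0.642) was near the median of the 37 genes, and was -0.06 without Flox control replicate 1. The processed pseudogene Gm12251 matches Ndufs3 at 98.6% over 792 bases and had 2354 counts over the 6 libraries, so the split of reads between them is uncertain.

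The accessory subunits of the matrix arm had 9 of 9 negative fold changes (median -0.18), but 6 of 9 and a median of -0.04 without Flox control replicate 1. Of the 9, Ndufa5 and Ndufa12 separated the groups, beside 9.51% of all genes. Ndufa5 was at 62.99, 60.2 and 58.3 CPM in Celf1 AKO fat and 85.7, 65.1 and 64.5 CPM in Flox control fat, and Ndufa12 at 57.8, 59.04 and 55.6 CPM in Celf1 AKO fat and 81.9, 63.4 and 61.4 CPM in Flox control fat. Ndufa12 shares 99.5% identity over 402 bases with the processed pseudogene Gm15920, which had 3714 counts. Ndufs4, whose loss in mice gives a Leigh-like encephalopathy, was at 114, 113 and 74.1 CPM in Celf1 AKO fat and 135, 106 and 93.8 CPM in Flox control fat. Celf1 AKO replicate 3 was the lowest library for Ndufs4 (log2 fold change -0.15, SE 0.21). Ndufa9, which binds a nicotinamide nucleotide beside the quinone site, was at 196, 193 and 167 CPM in Celf1 AKO fat and 256, 196 and 207 CPM in Flox control fat (log2 fold change -0.25). The smallest fold changes of the arm were those of Ndufa7 and Ndufa2. Ndufa7 was at 89.4, 109.9 and 89.6 CPM in Celf1 AKO fat and 115, 89.99 and 86.3 CPM in Flox control fat (log2 fold change -0.01, SE 0.15), and Ndufa2 at 69.1, 79.5 and 62.1 CPM in Celf1 AKO fat and 87.05, 68.3 and 61.2 CPM in Flox control fat (log2 fold change -0.04, SE 0.16). Both turned positive, to 0.13 and 0.11, without Flox control replicate 1. Ndufa6, Ndufs6 and Ndufv3 had log2 fold changes of -0.21, -0.18 and -0.16.

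Near the joint of the arms, the proximal membrane accessory subunits had 9 of 9 negative fold changes (median -0.26), and 8 of 9 with a median of -0.09 without Flox control replicate 1. Of the 9, Ndufa8 and Ndufc2 separated the groups, beside 9.51% of all genes. Ndufa3 (ENSMUSG00000035674, chr7:3617373-3620327, plus strand), a small membrane subunit, was at 51.1, 54.2 and 49.8 CPM in Celf1 AKO fat and 75.7, 62.96 and 53.7 CPM in Flox control fat, so that Celf1 AKO replicate 2 reached Flox control replicate 3. Its log2 fold change was -0.31 (SE 0.14, edgeR adjusted p = 0.4), or -0.18 without Flox control replicate 1. Ndufa8, a twin-CX9C protein of the intermembrane face, was at 102, 115 and 105 CPM in Celf1 AKO fat and 149, 119 and 120.1 CPM in Flox control fat. Ndufc2 was at 143, 139 and 139 CPM in Celf1 AKO fat and 192, 146 and 152 CPM in Flox control fat. The groups were apart for both genes, with log2 fold changes of -0.26 and -0.22. The X-linked Ndufa1 was at 68.6, 72.7 and 49.4 CPM in Celf1 AKO fat and 95.2, 68.4 and 69.8 CPM in Flox control fat, with Celf1 AKO replicate 3 the low library. Ndufa10, Ndufa11, Ndufa13 (also known as GRIM-19), Ndufc1 and Ndufs5 had log2 fold changes of -0.20, -0.26, -0.23, -0.27 and -0.13, and their groups overlapped.

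The distal membrane arm, built around the Ndufb subunits, had 10 of 10 negative fold changes (median -0.23), and 9 of 10 with a median of -0.10 without Flox control replicate 1. Of the 37 members, it held both that were lower at an unadjusted edgeR p under 0.05, beside 6.17% of all tested genes. Ndufb5 (ENSMUSG00000027673, chr3:32736990-32751566, plus strand), an accessory membrane subunit, was at 58.7, 60.9 and 55.6 CPM in Celf1 AKO fat and 91.7, 67.6 and 71.96 CPM in Flox control fat. Its group means were 58.4 ± 2.65 CPM in Celf1 AKO fat and 77.1 ± 12.8 CPM in Flox control fat (SD, n = 3 each), without overlap. The log2 fold change was -0.40 (SE 0.13, 95% confidence interval -0.71 to -0.09, edgeR unadjusted p = 0.0187, adjusted p = 0.314). It was -0.26 without Flox control replicate 1 (edgeR unadjusted p = 0.047). Exons of Ndufb5 overlap Mrpl47 on the other strand by 616 bases. Mrpl47, a mitochondrial ribosomal protein gene, was at 15.9, 16.04 and 25.3 CPM in Celf1 AKO fat and 34.1, 29.7 and 35.1 CPM in Flox control fat (log2 fold change -0.79, edgeR adjusted p = 0.252). The sources used here do not say whether counting used strand, so reads of these genes may not be told apart.

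Ndufb6 (ENSMUSG00000071014, chr4:40270591-40279421, minus strand), also a distal accessory subunit, was at 56.5, 50.9 and 44.8 CPM in Celf1 AKO fat and 78.8, 61.9 and 58.2 CPM in Flox control fat, again without overlap. Its means were 50.7 ± 5.85 CPM in Celf1 AKO fat and 66.3 ± 10.99 CPM in Flox control fat (SD, n = 3 each). The log2 fold change was -0.39 (SE 0.15, 95% confidence interval -0.73 to -0.04, edgeR unadjusted p = 0.033, adjusted p = 0.347), and -0.25 without Flox control replicate 1 (edgeR unadjusted p = 0.111). Smim27 overlaps Ndufb6 exons on the other strand by 257 bases, with 348 counts in all.

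Among the other distal subunits Ndufb10 separated the groups, at 156, 172 and 146 CPM in Celf1 AKO fat and 212, 174 and 176 CPM in Flox control fat, with Celf1 AKO replicate 2 just under Flox control replicate 2. Ndufb8, whose protein is a common blotting marker for assembled complex I, was at 138, 146 and 116 CPM in Celf1 AKO fat and 198, 149 and 136 CPM in Flox control fat (log2 fold change -0.27, SE 0.17). The groups overlapped for Ndufb8. Ndufb2 was sparse, at 3.68, 3.65 and 5.06 CPM in Celf1 AKO fat and 5.83, 4.797 and 5.11 CPM in Flox control fat (log2 fold change -0.35, SE 0.22). Its exons overlap Braf on the other strand by 146 bases and Gm42420 on the same strand by 145 bases. Ndufb3, Ndufb4, Ndufb7, Ndufb9 and Ndufb11 had log2 fold changes of -0.20, -0.22, -0.16, -0.17 and -0.21. Ndufb4 has a copy, Ndufb4c, identical over 390 bases and with 601 counts. Ndufs5 and Ndufs6 have pseudogene copies in the table as well (BC002163 and Ndufs6b). Ndufa2, Ndufa3, Ndufa4l2, Ndufa9, Ndufa11, Ndufa13, Ndufb11, Ndufs1, Ndufs3 and Ndufs6 share exon bases with a gene on the other strand, and Ndufb8 and Ndufb9 with one on the same strand, so their counts are uncertain to that extent.

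Ndufa4 and Ndufa4l2 had fold changes of opposite sign, while the other 35 members were all negative (median -0.23, or 30 of 35 negative and a median of -0.09 without Flox control replicate 1). Ndufa4 was at 287, 287 and 229 CPM in Celf1 AKO fat and 357, 257 and 274 CPM in Flox control fat, with overlap (log2 fold change -0.15, SE 0.17, edgeR adjusted p = 0.734). Ndufa4l2, the only member with a positive fold change, was at 2.64, 3.55 and 1.74 CPM in Celf1 AKO fat and 1.84, 3.56 and 1.68 CPM in Flox control fat. Replicate 2 was the highest of each group, and the 95% confidence interval ran from -0.74 to 1.07 (log2 fold change 0.16, SE 0.39, edgeR adjusted p = 0.892). Without Flox control replicate 1 both fold changes were 0.01.

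**Figure D3:**
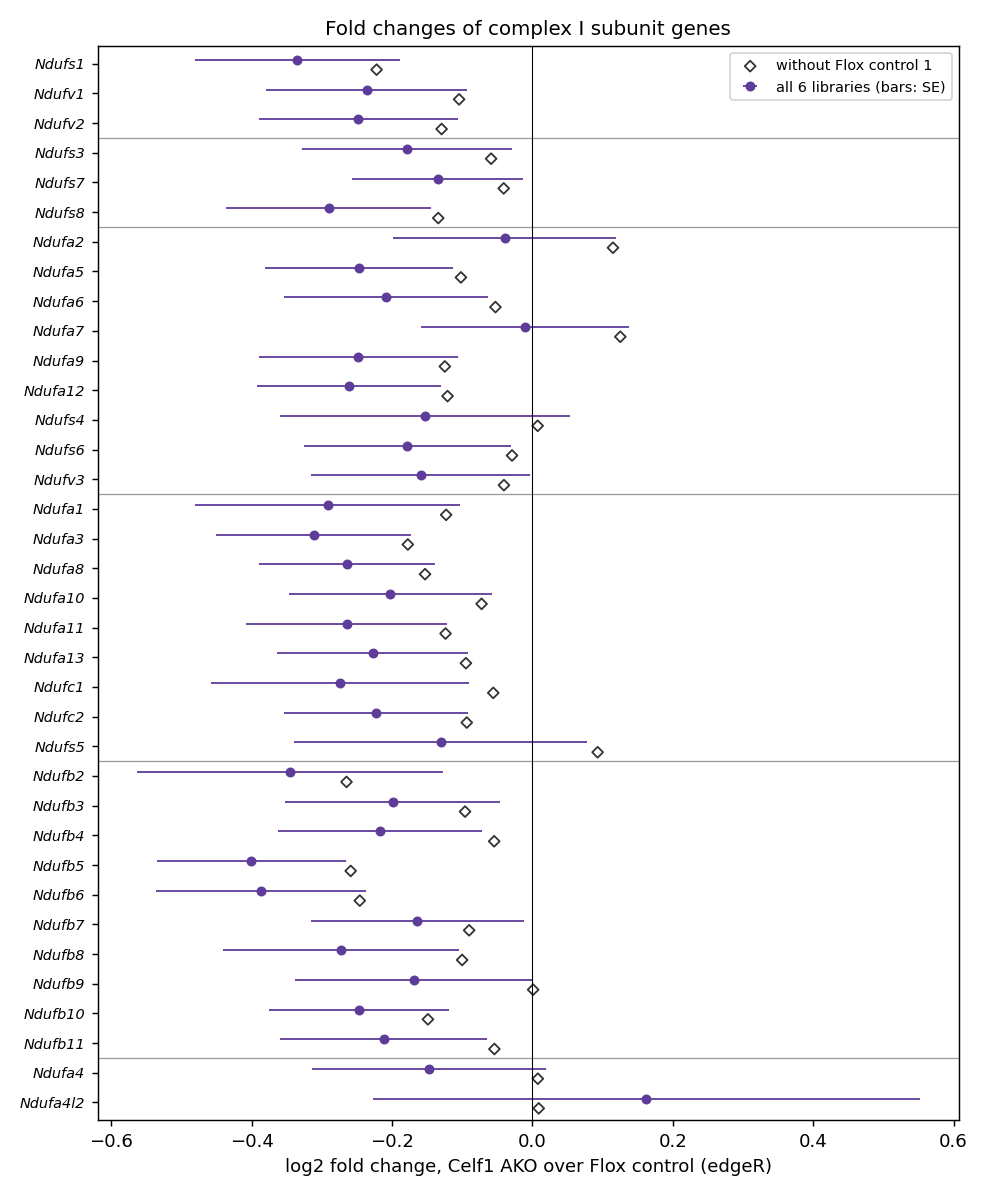
Log2 fold change of each member, Celf1 AKO over Flox control (x axis), from edgeR on all 6 libraries (filled points, bars are 1 SE) and without Flox control replicate 1 (open diamonds). The filled points lie below 0 for 35 of the 36 genes drawn, and the diamonds for 29 of 36, closer to 0 for 34.

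The mitochondrially encoded subunits had fold changes of both signs. Of the 7 ND genes 3 had negative and 4 positive fold changes, with mt-Nd1 turning positive under DESeq2 and RLE scaling (median 0.03, or 0.22 without Flox control replicate 1), and none passed in edgeR. Here mt-Nd1, in the proton-pumping arm next to the quinone site, was at 8091, 9389.7 and 7886 CPM in Celf1 AKO fat and 10783, 7489 and 7433 CPM in Flox control fat (log2 fold change -0.02). The other abundant ND genes were also near 0, namely mt-Nd2 (0.03), mt-Nd4 (0.03), mt-Nd5 (-0.05) and mt-Nd6 (0.06). Among the sparse genes mt-Nd4l had a log2 fold change of 0.31, and mt-Nd3 was at 12.6, 14.8 and 13.7 CPM in Celf1 AKO fat and 19.9, 15.04 and 22.7 CPM in Flox control fat (log2 fold change -0.49, SE 0.18, edgeR adjusted p = 0.333). Of the 7 ND genes only mt-Nd3 had all Celf1 AKO libraries below all Flox control libraries, beside 9.51% of all genes.

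Summed ND counts came to 24765, 28223 and 24176 CPM in Celf1 AKO, against 31906, 22231 and 22994 CPM in Flox control. Divided by the summed CPM of the 37 nuclear genes, this gave 5.76, 6.34 and 6.35 in Celf1 AKO, against 5.56, 5.03 and 5.25 in Flox control. The ratio was 6.15 ± 0.34 in Celf1 AKO and 5.28 ± 0.27 in Flox control (SD, n = 3 each), higher in every Celf1 AKO library, but an exact two-sided permutation test of 3 against 3 libraries cannot go below p = 0.1. The Celf1 AKO mean was 116% of the Flox control mean, and 119.6% without Flox control replicate 1.

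Factors that assemble complex I were lower on average for 18 of 20 tested genes, beside 52.5% of all genes (median log2 fold change -0.31, and -0.23 without Flox control replicate 1). Of these, 11 separated the groups downward, beside 9.51% of all genes, and 9 had an unadjusted edgeR p under 0.05 in that direction, beside 6.17%. None passed the adjusted test with all 6 libraries. Ndufaf1, an early assembly factor, was at 27.04, 27.8 and 27.3 CPM in Celf1 AKO fat and 40.7, 36.97 and 38.9 CPM in Flox control fat. The groups were well apart for Ndufaf1 (log2 fold change -0.51, SE 0.10, edgeR adjusted p = 0.227). DESeq2 called it (adjusted p = 0.00342), in a fit that called 0.908% of all genes as lower. Tmem126b, which works in the same assembly complex, was at 16.7, 18.01 and 23.3 CPM in Celf1 AKO fat and 23.9, 28.6 and 32.4 CPM in Flox control fat (log2 fold change -0.55, SE 0.17, edgeR adjusted p = 0.302). Without Celf1 AKO replicate 3, Ndufaf4 and Tmem186 passed as lower (edgeR adjusted p = 0.0236 and 0.0352), in a fit that called 1.76% of all genes as lower. Both are named here after their values were seen. Ndufaf4 was at 35.1, 42.2 and 71.6 CPM in Celf1 AKO fat and 88.3, 76.6 and 93.99 CPM in Flox control fat, so the library left out was the highest of its group.

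Ndufab1, the mitochondrial acyl carrier protein that is also a complex I subunit, falls outside the symbol rule. It was at 135, 159 and 136 CPM in Celf1 AKO fat and 192, 158 and 165 CPM in Flox control fat (log2 fold change -0.26, edgeR adjusted p = 0.43). Of 8 regulators of mitochondrial genes, 5 had negative fold changes, beside 52.5% of all genes (median -0.22, or -0.14 without Flox control replicate 1), and none passed in edgeR. Esrra, the estrogen-related receptor alpha, was at 39.98, 37.98 and 53.1 CPM in Celf1 AKO fat and 94.9, 79.95 and 93.00 CPM in Flox control fat, without overlap (log2 fold change -1.03, SE 0.15, edgeR adjusted p = 0.215). DESeq2 called it with all 6 libraries (adjusted p = 2.07e-05), as did edgeR without Celf1 AKO replicate 3 (adjusted p = 0.0174). These fits called 0.908% and 1.76% of all genes as lower. Tfam, which packages and transcribes mitochondrial DNA, was at 31.98, 29.5 and 35.7 CPM in Celf1 AKO fat and 45.4, 38.7 and 41.2 CPM in Flox control fat (log2 fold change -0.37, edgeR adjusted p = 0.305). Ppargc1a, a coactivator of mitochondrial genes named after its values were seen, went the other way, at 186, 80.4 and 74.7 CPM in Celf1 AKO fat and 79.3, 52.4 and 57.4 CPM in Flox control fat. Its groups overlapped (log2 fold change 0.85, SE 0.36, edgeR unadjusted p = 0.0468, adjusted p = 0.38). Ppargc1b, another of the 8 regulators, was also chosen with its values known. It was at 16.8, 14.1 and 14.8 CPM in Celf1 AKO fat and 16.9, 20.3 and 26.7 CPM in Flox control fat. The groups were only just apart for Ppargc1b (log2 fold change -0.48, SE 0.19, edgeR unadjusted p = 0.0328, adjusted p = 0.347).

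The nuclear subunits of complexes II to V had mostly negative fold changes too, 43 of 45, beside 52.5% of all genes (median log2 fold change -0.25, or -0.09 without Flox control replicate 1), 17 of them with the groups apart, beside 9.51% of all genes, and Flox control replicate 1 highest in 42, beside 15.3%. Mitochondrial ribosomal protein genes were negative in 69 of 76, beside 52.5% of all genes (median -0.20, or -0.15 without Flox control replicate 1), with all Celf1 AKO libraries below all Flox control libraries in 36, beside 9.51%. All 8 genes used as a gauge of mitochondrial content were negative, beside 52.5% of all genes (median -0.31, or 7 of 8 and -0.22 without Flox control replicate 1). Among them Tomm70a, an outer membrane import receptor, was at 103, 109 and 134 CPM in Celf1 AKO fat and 168, 145 and 161 CPM in Flox control fat, and Vdac3, an outer membrane channel, at 120.0, 134 and 132 CPM in Celf1 AKO fat and 170.0, 150.1 and 158 CPM in Flox control fat. Neither gene passed in edgeR (adjusted p = 0.293 and 0.321). No test here set the complex I subunits apart from these lists.

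**Figure D4:**
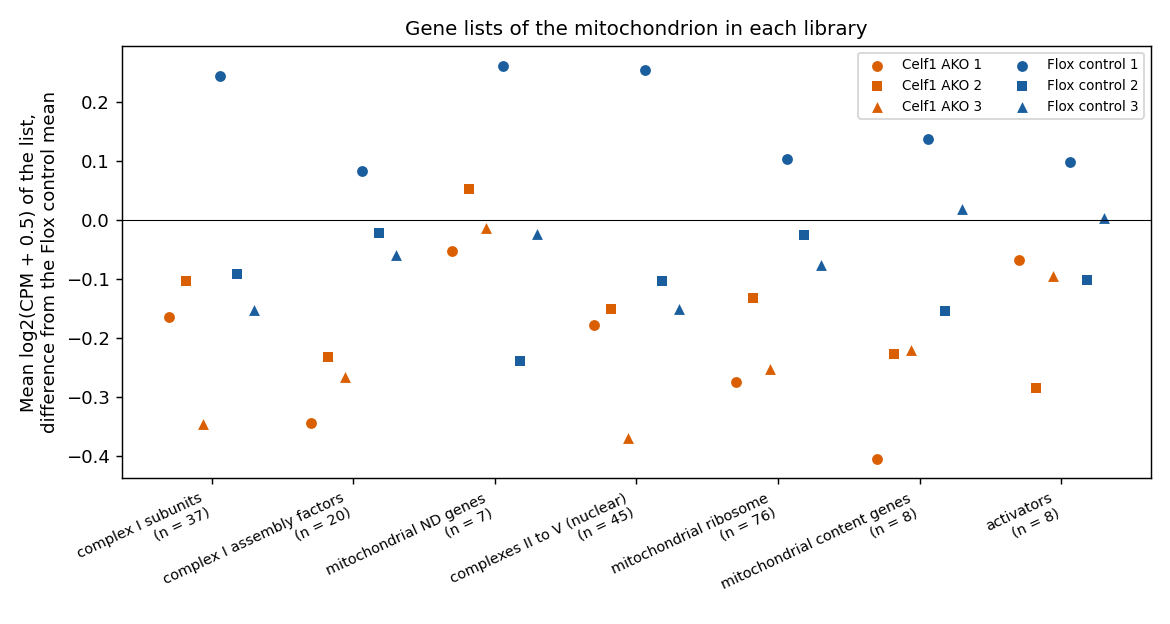
Mean log2(CPM + 0.5) of each gene list per library, as the difference from the Flox control mean (y axis, log2 units), with Celf1 AKO libraries in orange left of Flox control libraries in blue. The complex I subunits run from -0.35 to -0.10 in Celf1 AKO and from -0.15 to 0.24 in Flox control and overlap. The assembly factors run from -0.34 to -0.23 and from -0.06 to 0.08 and do not. The mitochondrial ribosomal protein genes and the mitochondrial content genes do not overlap either.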

How the data were processed

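Messenger RNA of iWAT was sequenced in 6 libraries. The authors deposited 1 table of gene counts and 1 of FPKM values, and per the submitters' processing notes HISAT2, RSEM 1.3.1 and the builds GRCm38 and mm10 were used. Neither the order of these tools nor the strand setting is given there.

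The deposited counts were tested with edgeR 4.0.16 in R 4.3.3 (TMM scaling, filterByExpr, robust quasi-likelihood fit, Benjamini-Hochberg adjustment over 16366 genes, 261 removed). CPM values here are TMM-scaled. FPKM as deposited by the authors were used for levels and, as log2(FPKM + 1) with at least 1 FPKM in 3 libraries, in limma 3.58.1. DESeq2 1.42.0, other scalings and filters, a replicate block and leaving out each library were alternatives. The edgeR fit was also run on simulated counts, and no result given here rests on that run. Of the gene IDs, 16522 matched GENCODE M21. Copies (at least 95% identity over 200 bases) were sought with blastn 2.17.0. The least alike pair of libraries had r = 0.957, and no pair agreed within sampling noise (lowest chi-square per degree of freedom 49.2). Celf1 AKO replicate 3 correlated more with Flox control replicates 1, 2 and 3 (r = 0.978, 0.980 and 0.975) than with its own group. Its r was 0.969 with Celf1 AKO replicate 1 and 0.967 with replicate 2. The reason was not tested.

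The members, gene lists and motifs were chosen with earlier results of these data known. Named per library were the nuclear core subunits, the 4 members of smallest p, those of largest fold change in each direction at 1 CPM or more, Ndufa4 and Ndufa4l2. The 2 genes of smallest p were also named for the assembly factors, the regulators of mitochondrial genes and the mitochondrial content genes. Further members given per library were added after their values were seen. For 1 member the individual values are not reported here and it is not drawn in the figures, though it is counted in the summaries.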

Additional observations from a re-analysis of the deposited data

How the results depend on the processing

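None of the 37 complex I subunit genes passed an adjusted p of 0.05 under any setting run, and the lowest adjusted p was 0.189, for Ndufb2 in edgeR without Celf1 AKO replicate 3. Their median log2 fold change of -0.22 ranged from -0.23 to -0.12 over the other scalings, filters and tests, lowest in size with limma-voom quality weights, and from -0.29 to -0.09 when 1 library was left out. With the replicate number as a block it was -0.21 and no member passed. Deviations of same-numbered libraries from their group means had r = 0.082, -0.050 and 0.213, and those of other pairs ran from -0.273 to 0.257. With 3 libraries a group these values cannot decide whether libraries were paired, and the labels do not say.

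Over all genes edgeR called 2. DESeq2 called 496 (345 higher and 151 lower), library-size scaling 0, limma on log2(FPKM + 1) 0, on log2(FPKM + 0.1) 0 and without a filter 1, limma-voom 0 and with quality weights 10, and the replicate block 12 (9 higher and 3 lower). Leaving out 1 library gave 0 to 527 calls, the most without Celf1 AKO replicate 3. Among assembly factor and ND genes the count was 0, but 1 with DESeq2 and 0 to 2 with 1 library left out.

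Fold changes near 0 changed sign. With quality weights they became 0.075 for Ndufa2, 0.081 for Ndufa7, 0.013 for Ndufs4, 0.067 for Ndufs5, 0.11 for mt-Nd1 and 0.011 for mt-Nd5. Ndufa7 was 0.012 with DESeq2, 0.013 with RLE scaling, 0.0053 with upper-quartile scaling and 0.0038 with a 1 CPM minimum, and mt-Nd1 was 0.0020 with DESeq2 and 0.0032 with RLE. With 1 library left out, the log2 fold change ran from -0.15 to 0.11 for Ndufa2, -0.24 to 0.0078 for Ndufa4, -0.11 to 0.58 for Ndufa4l2, -0.12 to 0.13 for Ndufa7, -0.27 to 0.0011 for Ndufb9, -0.27 to 0.022 for Ndufs4, -0.27 to 0.093 for Ndufs5, -0.11 to 0.18 for mt-Nd1, -0.10 to 0.23 for mt-Nd2, -0.062 to 0.22 for mt-Nd4, -0.11 to 0.076 for mt-Nd5 and -0.089 to 0.29 for mt-Nd6. The cause was not tested. At 54.9 counts per CPM or more, the spread between 3 libraries a group and not counting limits precision: the median 95% confidence interval ran from -0.56 to 0.13.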
